A study of Homo sapiens with 20 samples.

Results

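The cadherins described here are the 7 genes CDH1, CDH2, CDH3, CDH4, CDH6, CDH11 and CDH13, picked by name from a table of read counts for 27864 Entrez genes and followed through all 7 sample groups. All 7 were found in the table, and 5 of them (CDH2, CDH3, CDH6, CDH11 and CDH13) had enough reads to enter the test, as did 16323 genes in all. CDH1 and CDH4 did not, and their reads are given as counts.

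The libraries were prepared with a stranded mRNA kit from SUM159PT cells, an established line of triple-negative breast cancer. Wild-type cells (wt) were set beside 2 pools made to lack NNMT, an enzyme that methylates nicotinamide: KOs, edited with 1 guide RNA at the transcription start site, and KOd, edited with 2 guide RNAs that remove exon 1. Each pool mixed several clones, so each stands for those clones. Each of the 3 was grown adherent (2D) in Ham's F12 with 5% serum, insulin and hydrocortisone, and as secondary tumorspheres (3D) in ultra-low attachment plates, in DMEM/F12 with B27, EGF and basic FGF (both at 20 ng/mL) and without serum, for 2 rounds of 6 days, with 3 libraries (A, B and C) per group. A seventh group of 2 libraries held adherent wt cells switched to tumorsphere medium before confluency and kept in it until 80% confluent. Medium, culture format and RNA kit change together between 2D and 3D and cannot be told apart there.

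Cadherins are calcium-dependent adhesion receptors that join like cells. Type I classical cadherins such as E-cadherin (CDH1), N-cadherin (CDH2), P-cadherin (CDH3) and R-cadherin (CDH4), and type II members such as K-cadherin (CDH6) and OB-cadherin (CDH11), bind catenins through their cytoplasmic tail and so reach the actin cytoskeleton. T-cadherin (CDH13) has the same kind of extracellular repeats but is held by a lipid anchor and has no tail, so it is not a classical cadherin in the strict sense. In breast epithelium CDH1 marks luminal cells and CDH3 basal cells, and loss of CDH1 with gain of CDH2 is the textbook sign of an epithelial to mesenchymal transition.

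CDH2, the most abundant type I member here, has 2 annotated starts on the minus strand of chromosome 18 (RefSeq, GRCh38.p14), and the bases upstream of both are shown because CDH2 changed in every pool and culture. CDH4 was the only other member with an entry in the promoter table used, and had too few reads to test. The 250 bases upstream of the outer start (chr18:28177131-28177380) and of the inner start (chr18:28036642-28036891) read as follows, 5′ to 3′, with matches to the E-box motif CANNTG in capitals.
CDH2 outer start: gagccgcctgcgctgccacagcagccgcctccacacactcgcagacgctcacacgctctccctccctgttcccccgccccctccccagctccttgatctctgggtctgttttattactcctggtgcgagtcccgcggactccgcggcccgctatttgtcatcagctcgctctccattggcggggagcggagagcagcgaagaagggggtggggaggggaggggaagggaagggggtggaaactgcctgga
CDH2 inner start: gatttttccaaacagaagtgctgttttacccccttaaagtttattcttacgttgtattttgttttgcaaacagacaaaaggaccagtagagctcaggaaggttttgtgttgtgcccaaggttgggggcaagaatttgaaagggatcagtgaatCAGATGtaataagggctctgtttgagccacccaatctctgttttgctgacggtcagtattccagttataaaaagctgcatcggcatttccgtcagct
The outer window had 66.0% G and C and the inner one 42.0%, where the median of all 35116 such windows was 58.0%. The CANNTG motif, which reads the same way on both strands, had 0 matches in the outer window and 1 in the inner one, and 61.8% of all windows held it. CACCTG or its reverse complement CAGGTG, the E-box bound by SNAI and ZEB factors and contained in CANNTG, was found in neither, against 17.5% of all windows. Counts per gene do not tell the starts apart.

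Read totals lay between 26396964 and 43744817. All 6 libraries labelled KOs had more reads (at least 37316513) and a lower share of ribosomal RNA (at most 2.70%) than the other 14 (at most 32016875 reads, at least 2.82%), so the pool and this difference cannot be told apart wherever they are compared. NNMT fell in KOd, with log2 fold changes of -4.68 ± 0.21 (SE) in 2D and -4.26 ± 0.20 in 3D (adjusted p = 3.7e-11 and 7.1e-11), whereas in the libraries labelled KOs it was -0.14 ± 0.17 and -0.21 ± 0.17 (adjusted p = 0.52 and 0.30); their mRNA count does not itself read the edit, and they are called labelled KOs here. In 3 groups 1 library correlated less with its replicates than the rest did, namely replicate C in wt 3D, replicate C in KOd 3D and replicate A in labelled KOs 2D, and results that rest on them are given with and without them. Markers of the line were present: VIM, the mesenchymal filament vimentin, had 2540 to 5970 CPM, a count scaled to a common library total, whereas EPCAM, an epithelial surface protein, had at most 0.426 and the oestrogen receptor ESR1 at most 0.315. Other luminal markers were present, with KRT8 at 202 to 1120 CPM and KRT18 at 147 to 476. The sum of the 8 luminal markers was 576 to 728 CPM in wt 2D, 1340 to 1610 in labelled KOs 2D, 584 to 626 in KOd 2D, 396 to 401 in tumorsphere medium, 432 to 483 in wt 3D, 418 to 446 in labelled KOs 3D and 495 to 517 in KOd 3D. Of markers of other cell types, the T cell gene CD3E (5 reads in all libraries together) and the endothelial genes CDH5 (10) and CLDN5 (0) were near or at 0. Other listed markers moved with the groups: the sum of 7 leukocyte markers, led by CD68, was 19.0 to 21.2 CPM in wt 3D and at least 189 in labelled KOs 3D, and that of 6 endothelial markers, led in 3D by PECAM1, was 7.56 to 10.8 in wt 2D and 50.6 to 73.3 in wt 3D. The sum of 6 mural or fibroblast markers, led in 3D by PDGFRA and PDGFRB, was 101 to 121 CPM in wt 2D, 114 to 245 in labelled KOs 2D and 86.2 to 87.7 in KOd 2D. It was 423 to 445 in tumorsphere medium, 1310 to 1720 in wt 3D, 516 to 541 in labelled KOs 3D and 367 to 464 in KOd 3D. This sum was higher in 3D than in 2D in wt and in both pools, and higher in wt 3D than in the 3D libraries of either pool. CDH6 was also higher in wt 3D than in the 3D libraries of either pool, and in the pools it was lower in 3D than in 2D. The part of these markers in the cadherin results was not tested.

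Values per gene are CPM scaled by TMM factors, which adjust library sizes so that most genes do not differ. Changes are log2 fold changes ± SE from a quasi-likelihood model (edgeR) fitted to all genes and libraries, with p adjusted over the 16323 genes tested (Benjamini-Hochberg), and an adjusted p under 0.05 counted as passing. Nothing states that the libraries of a group came from separate cultures, so these p-values measure the spread between libraries.

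**Figure D1:**
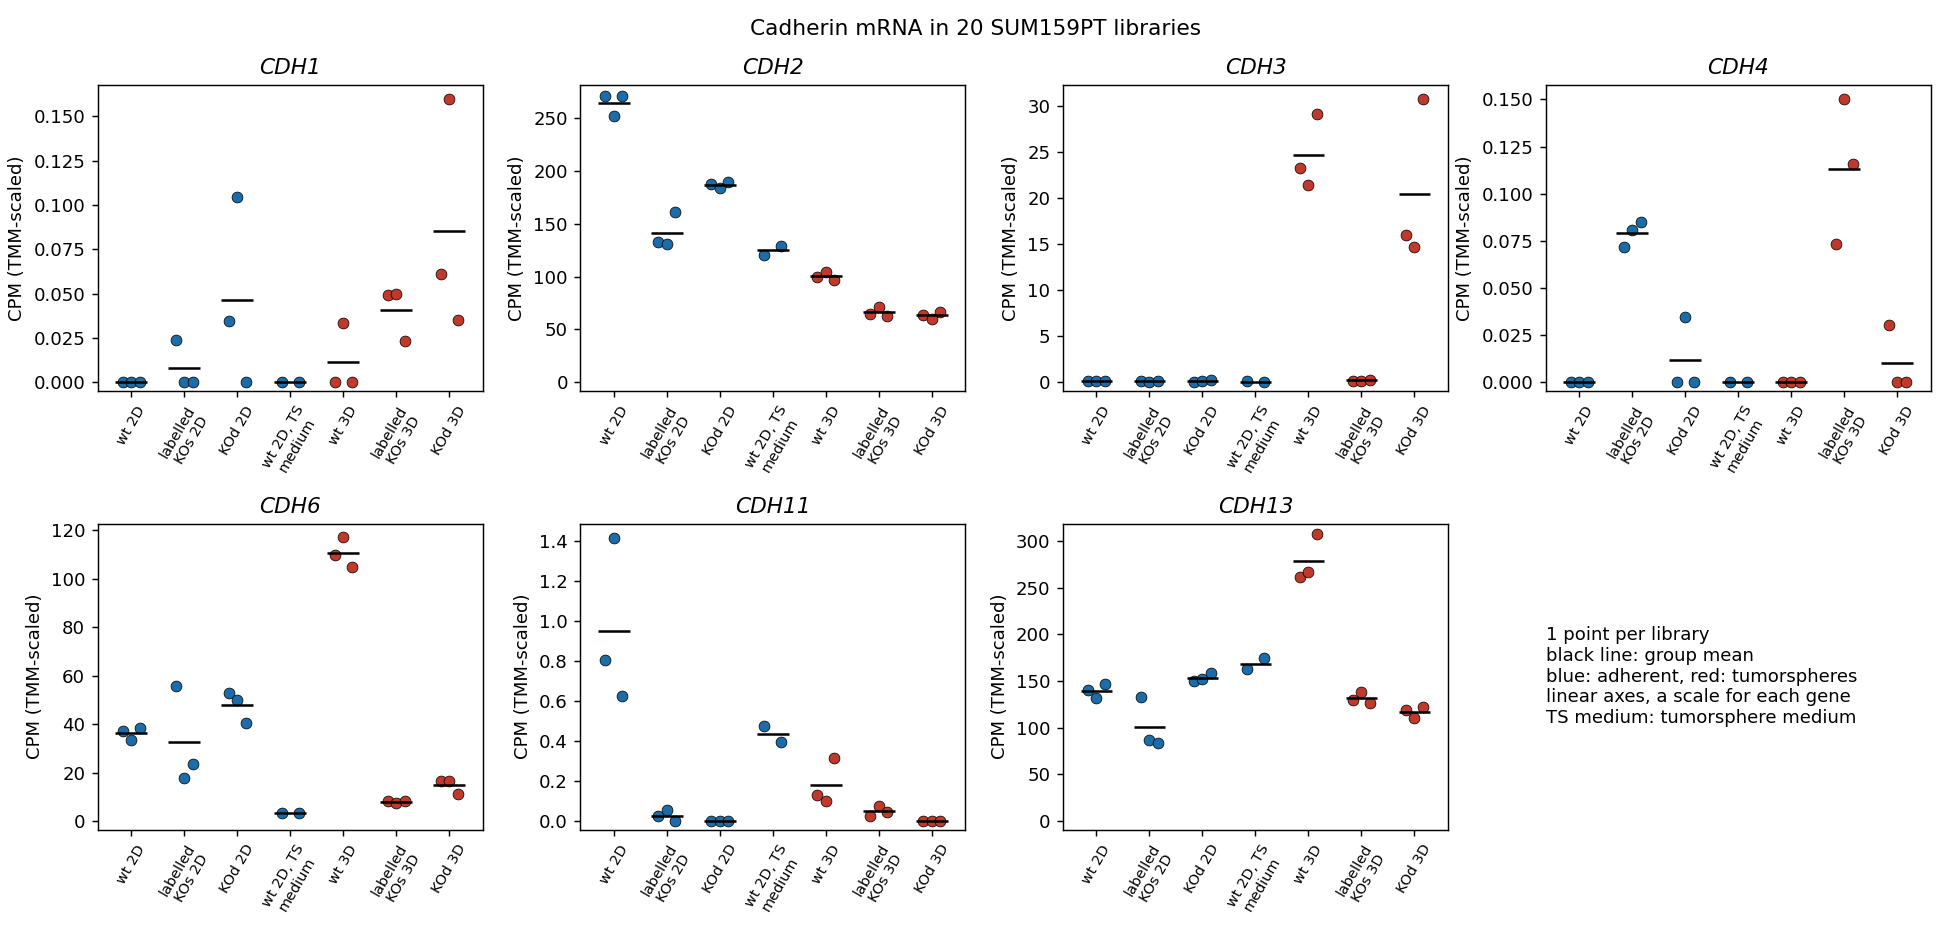
Level of each of the 7 cadherins in CPM (TMM-scaled, vertical axis, linear, a scale of its own for each gene) in each of the 20 libraries, by group on the horizontal axis; points are libraries, lines are group means, blue is adherent and red tumorsphere culture. CDH2 is highest in wt 2D, CDH3 is high only in wt 3D and KOd 3D, CDH6 and CDH13 peak in wt 3D, and CDH1 and CDH4 never exceed 0.160 CPM.

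CDH2 (Entrez 1000, chromosome 18, 27932879 to 28177130) fell in tumorspheres of wt and of both pools, and was lower in both pools than in wt in each culture. In wt it measured 271, 252 and 270.5 CPM in 2D and 99.7, 104 and 96.8 in 3D. Every 2D library was above every 3D library, and the log2 fold change was -1.40 ± 0.083 (2.64-fold lower, adjusted p = 2.3e-10). In such bulk libraries fewer cells with CDH2 and less CDH2 per cell cannot be told apart, and this holds for every gene below. In labelled KOs CDH2 measured 133, 131 and 161 CPM in 2D and 64.9, 70.8 and 63.1 in 3D, a change of -1.10 ± 0.083 (adjusted p = 6.5e-09). In KOd it measured 188, 184 and 189 CPM in 2D and 63.5, 59.65 and 66.9 in 3D, a change of -1.56 ± 0.084 (adjusted p = 4.8e-11). The 2D and 3D libraries overlapped in neither pool.

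Against wt, CDH2 was lower by -0.90 ± 0.082 in labelled KOs and -0.50 ± 0.082 in KOd in 2D (adjusted p = 1e-07 and 8.1e-05), and by -0.60 ± 0.082 and -0.66 ± 0.083 in 3D (adjusted p = 7.9e-06 and 6.4e-06). The comparisons of both pools with wt share the wt libraries. Between the pools, KOd was higher than labelled KOs by 0.40 ± 0.082 in 2D (adjusted p = 0.00038), while in 3D the difference was -0.06 ± 0.082 (adjusted p = 0.54). In adherent wt cells in tumorsphere medium CDH2 measured 120.2 and 129 CPM, below every wt 2D library and above every wt 3D library. The change with medium was -1.08 ± 0.095 (adjusted p = 2.2e-07), and tumorspheres were lower than these cells by another -0.31 ± 0.091 (adjusted p = 0.0061; -0.25 with adjusted p = 0.091 without tumorsphere medium replicate B). From high to low the order of the groups was wt 2D, KOd 2D, labelled KOs 2D, wt in tumorsphere medium, wt 3D, labelled KOs 3D and KOd 3D, and the last pair alone overlapped.

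CDH3 (Entrez 1001, chromosome 16, 68645310 to 68733771), the basal cadherin, was nearly absent from adherent cells and present in the tumorspheres of wt and KOd, while tumorspheres of labelled KOs stayed near the adherent level. In wt 2D it had 4, 3 and 5 reads (0.146, 0.112 and 0.196 CPM). In wt 3D it had 722, 638 and 836 reads (23.3, 21.4 and 29.1 CPM). The groups were far apart, and the log2 fold change was 7.32 ± 0.40 (adjusted p = 8.6e-11), a 159-fold difference whose size rests on the few 2D reads. In KOd CDH3 went from 1, 4 and 6 reads in 2D to 523, 459 and 878 in 3D (16.0, 14.7 and 30.8 CPM), a change of 7.29 ± 0.41 (adjusted p = 8.1e-11). In labelled KOs it had 6, 2 and 7 reads in 2D and 7, 7 and 11 in 3D, at most 0.255 CPM although these libraries were the deepest, and the change of 0.60 ± 0.57 did not pass (adjusted p = 0.37).

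Among tumorspheres, CDH3 was lower in labelled KOs than in wt by -6.91 ± 0.37 (120-fold, adjusted p = 6.6e-11) and higher in KOd than in labelled KOs by 6.64 ± 0.37 (adjusted p = 3.3e-10). KOd differed from wt by -0.27 ± 0.25, which did not pass (adjusted p = 0.44). Without KOd 3D replicate C, the highest of its group, that difference was -0.68 and passed (adjusted p = 0.029), as it did without all 3 libraries that stand apart (-0.54, adjusted p = 0.0083). The direct test of the difference in the response to 3D gave -6.71 ± 0.86 for labelled KOs against wt (adjusted p = 1.7e-05) and -0.02 ± 1.07 for KOd against wt (adjusted p = 1.0). Tumorsphere medium without suspension left CDH3 at 3 reads and 1 read, -0.96 ± 0.92 from wt 2D (adjusted p = 0.47), and tumorspheres were 8.27 ± 0.53 higher than these cells (adjusted p = 8.1e-10). In 2D neither pool passed against wt (adjusted p = 0.83 and 0.81). Basal keratin genes in the list of line markers differed between tumorspheres too: KRT5 averaged 21.4 CPM in wt 3D, 0.218 in labelled KOs 3D and 35.0 in KOd 3D, and KRT14 averaged 11.7, 0.595 and 5.89. KRT5 was named after its values were seen.

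CDH1 (Entrez 999, chromosome 16, 68737292 to 68835537), whose start lies 3520 bases beyond the end of CDH3, was not detectable above a few reads in any group. It had 19 reads in all 20 libraries together and at most 5 in 1 library (KOd 3D replicate B, 0.160 CPM). In wt 2D and in tumorsphere medium it had 0 reads, and 3 reads over the group, the most a count of 0 allows, are 0.0362 and 0.0553 CPM. In wt 3D it had 0, 1 and 0 reads. In KOd it had 1, 3 and 0 reads in 2D and 2, 5 and 1 in 3D, and in labelled KOs 1, 0 and 0 in 2D and 2, 2 and 1 in 3D. In the tumorspheres of wt and KOd, where CDH3 had at least 459 reads per library, its neighbour had at most 5.

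CDH4 (Entrez 1002, chromosome 20, 61252261 to 61940617) had 25 reads in all, of which 23 were in the libraries labelled KOs: 3, 3 and 3 in 2D and 3, 6 and 5 in 3D. KOd had 1 read in 2D and 1 in 3D, and all wt libraries had 0. No library exceeded 0.150 CPM, and the gene was not tested.

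The type II cadherins differed in direction. CDH6 (Entrez 1004, chromosome 5, 31193686 to 31329146) rose in tumorspheres of wt and fell in tumorspheres of both pools. In wt it measured 37.0, 33.5 and 38.3 CPM in 2D and 110, 117 and 105 in 3D. All 3D libraries were above all 2D libraries, with a change of 1.61 ± 0.28 (3.05-fold, adjusted p = 6.6e-05). In KOd it measured 53.0, 50.1 and 40.6 CPM in 2D and 16.4, 16.7 and 11.0 in 3D, again without overlap and in the other direction, with -1.70 ± 0.28 (adjusted p = 4.3e-05). In labelled KOs it measured 56.0, 18.0 and 23.7 CPM in 2D and 8.16, 7.34 and 8.48 in 3D. Replicate A of the 2D group was far above the other 2; the change was -2.03 ± 0.29 (adjusted p = 8.9e-06) and -1.38 without it, which still passed.

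The response of CDH6 to 3D differed from that of wt by -3.64 ± 0.40 in labelled KOs and -3.31 ± 0.39 in KOd (adjusted p = 3.3e-06 and 9.2e-06). In 3D CDH6 was lower than in wt by -3.79 ± 0.30 in labelled KOs and -2.91 ± 0.29 in KOd (13.8-fold and 7.50-fold, adjusted p = 1.1e-08 and 4.8e-07). KOd was higher than labelled KOs by 0.88 ± 0.29 there (adjusted p = 0.017), a call lost when labelled KOs replicate B (adjusted p = 0.058) or KOd replicate A (0.059) or B (0.063) was left out. In 2D the changes against wt did not pass: -0.15 ± 0.27 in labelled KOs (adjusted p = 0.66) and 0.40 ± 0.27 in KOd (adjusted p = 0.25). Without labelled KOs 2D replicate A the first was -0.80 and passed (adjusted p = 0.00023), and the second passed with the compared groups fitted alone (0.40, adjusted p = 0.0052). KOd against labelled KOs in 2D was 0.55 ± 0.27 (adjusted p = 0.087) and 1.20 without that replicate (adjusted p = 2.1e-06).

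Tumorsphere medium moved CDH6 opposite to tumorsphere culture in wt. It measured 3.42 and 3.46 CPM in tumorsphere medium, lower than in every other library, a change of -3.40 ± 0.38 from wt 2D (10.5-fold lower, adjusted p = 3.3e-06). Tumorspheres were 5.01 ± 0.40 above these cells (32.1-fold, adjusted p = 1.1e-08). From high to low the order was wt 3D, KOd 2D, wt 2D, labelled KOs 2D, KOd 3D, labelled KOs 3D and wt in tumorsphere medium, and of neighbours in that order wt 2D and labelled KOs 2D overlapped. Labelled KOs 2D, spread from 18.0 to 56.0 CPM by its replicate A, also overlapped KOd 2D.

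CDH11 (Entrez 1009, chromosome 16, 64943753 to 65123744), a cadherin of mesenchymal and bone cells, was low in wt and at or near 0 in both pools. In wt it had 22, 38 and 16 reads in 2D, 13 and 10 in tumorsphere medium, and 4, 3 and 9 in 3D. KOd had 0 reads in all 6 libraries, and labelled KOs had 1, 2 and 0 in 2D and 1, 3 and 2 in 3D. No library of either pool overlapped the wt libraries of the same culture in CPM.

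In wt, CDH11 fell in 3D by -2.38 ± 0.50 (adjusted p = 0.00082), from 0.805, 1.42 and 0.628 CPM to 0.129, 0.101 and 0.314. Against a floor of 3 reads over the group, CDH11 was at least 25.5-fold lower in KOd than in wt in 2D and at least 4.95-fold lower in 3D (adjusted p = 1.6e-05 and 0.0038). In labelled KOs 2D, with 3 reads against 76 in wt, it was 37.8-fold lower per read of the raw library totals, without TMM factors (95% counting interval 12.4 to 187, adjusted p of the model 2e-05), an interval that covers counting error only. In 3D, with 6 reads against 16, the difference of -1.81 ± 0.71 passed narrowly (adjusted p = 0.044) and did not pass without wt 3D replicate C (-1.20, adjusted p = 0.23). The change with tumorsphere medium was -1.12 ± 0.51 (adjusted p = 0.11) but had an adjusted p of 0.039 when the 3 libraries standing apart were dropped.

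CDH13 (Entrez 1012, chromosome 16, 82626969 to 83800640), the cadherin with a lipid anchor, was well measured in all groups and highest in wt tumorspheres. In wt it measured 140.1, 132 and 146 CPM in 2D and 261, 267 and 308 in 3D. The groups did not overlap, and the change was 1.00 ± 0.13 (2.00-fold, adjusted p = 3e-06). In KOd it measured 150.1, 153 and 158 CPM in 2D and 119, 110.4 and 122 in 3D, a fall of -0.39 ± 0.13 (adjusted p = 0.012) with no overlap. In labelled KOs it measured 132, 86.3 and 83.6 CPM in 2D and 129.8, 138 and 127 in 3D. Replicate A of the 2D group lay among the 3D libraries. The change of 0.38 ± 0.13 (adjusted p = 0.014) was 0.63 without that replicate and did not pass without replicate B (0.28, adjusted p = 0.079), without replicate C (0.27, adjusted p = 0.082) or with the compared groups fitted alone (0.39, adjusted p = 0.10).

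In 3D CDH13 was lower than in wt by -1.08 ± 0.13 in labelled KOs and -1.25 ± 0.13 in KOd (adjusted p = 1.4e-06 and 7.1e-07). The pools differed from each other there by -0.17 ± 0.13 (adjusted p = 0.29), and by -0.20 without the 3 libraries that stand apart, which passed (adjusted p = 0.01). In 2D it was lower in labelled KOs (-0.47 ± 0.13, adjusted p = 0.0051; 0.071 with the compared groups alone), whereas in KOd the change of 0.14 ± 0.13 did not pass (adjusted p = 0.40; 0.037 without the libraries that stand apart). KOd was 0.61 ± 0.13 above labelled KOs in 2D (adjusted p = 0.00051). The response to 3D differed from that of wt by -1.39 ± 0.18 in KOd (adjusted p = 2.3e-05) and by -0.61 ± 0.18 in labelled KOs (adjusted p = 0.013). The latter did not pass with library totals alone (-0.40, adjusted p = 0.10) or with the compared groups alone (-0.56, adjusted p = 0.064), and was -0.37 without labelled KOs 2D replicate A (adjusted p = 0.0097). Tumorsphere medium gave 163 and 174 CPM, above every wt 2D library, with 0.27 ± 0.14 (adjusted p = 0.15; 0.0015 without the libraries that stand apart), and tumorspheres were 0.72 ± 0.15 above these cells (adjusted p = 0.00033).

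**Figure D2:**
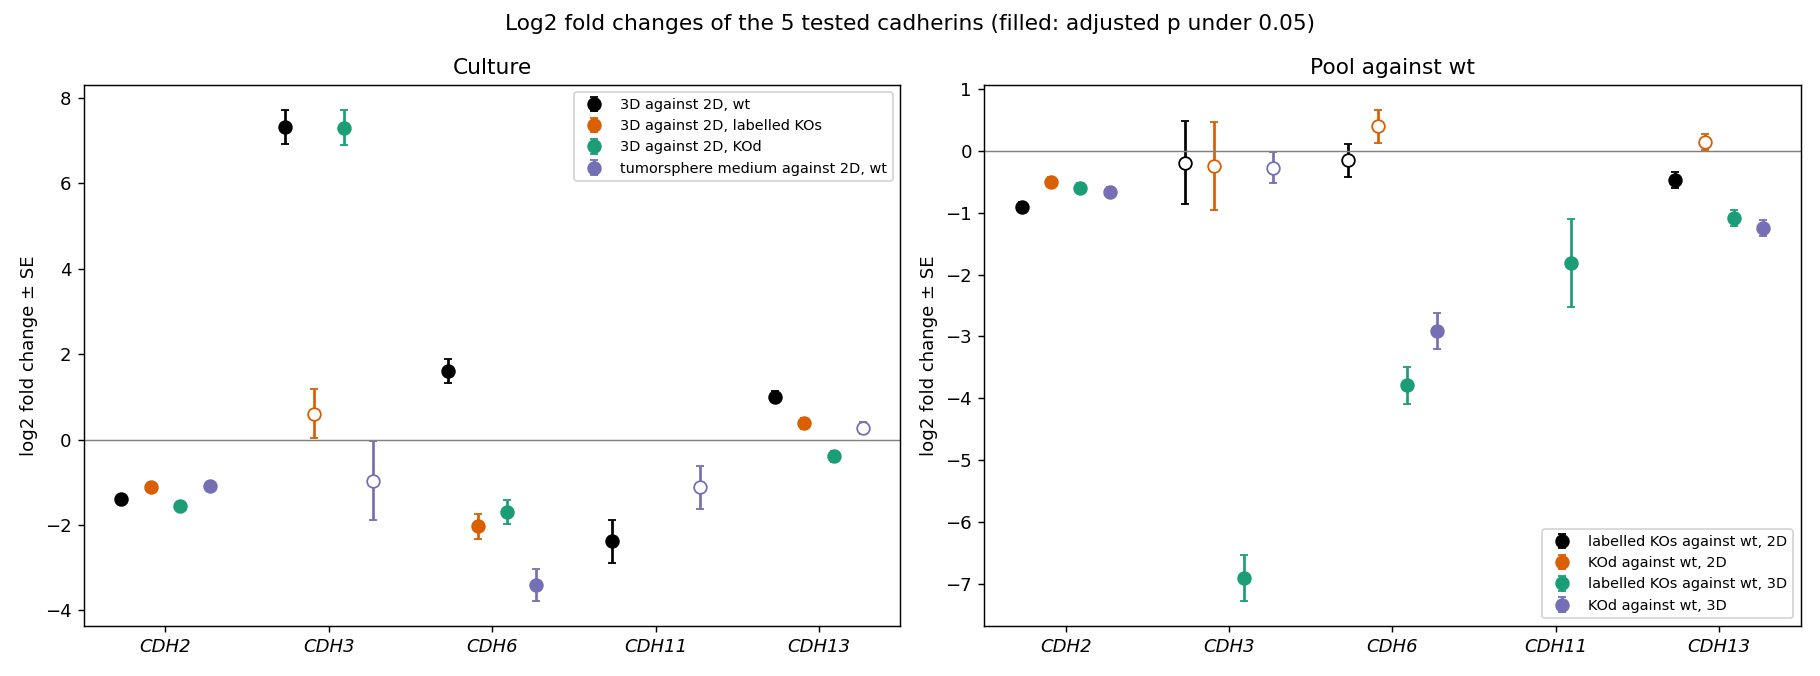
Log2 fold changes ± SE (vertical axis) of the 5 tested cadherins (horizontal axis) for culture comparisons on the left and for each pool against wt on the right; filled points passed an adjusted p of 0.05, and CDH11 is drawn only where both groups had more than 3 reads. CDH2 is below 0 in every comparison drawn, CDH3 is near 7 in wt and KOd tumorspheres but not in labelled KOs, and CDH6 rises in wt tumorspheres and falls in those of both pools.

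Counted by comparison, all 5 tested cadherins passed for 3D against 2D in wt, with 3 higher and 2 lower, where 63.7% of all genes passed (33.3% higher, 30.4% lower). In labelled KOs 3 passed (1 higher, 2 lower; 65% of all genes, 32.9% higher and 32.1% lower), and in KOd 4 passed, if CDH11, at 0 in both cultures, is counted with those that did not (1 higher, 3 lower; 66.4%, 35.2% higher and 31.2% lower). With passing shares this high, the counts are close to those of all genes. The median change of the 5 was 0.998 in wt, 0.384 in labelled KOs and -0.393 in KOd, where the medians of all genes were 0.043, 0.022 and 0.067. The KOd median counts a fitted value for CDH11, which was at 0 in both cultures and so had no measurable change. The other KOd changes were -1.56 for CDH2, 7.29 for CDH3, -1.7 for CDH6 and -0.39 for CDH13. In tumorsphere medium 2 passed and both were lower (32% of all genes passed, 16.4% lower), and in tumorspheres against tumorsphere medium 4 passed, 3 of them higher (62.8%, 32.8% higher and 30% lower).

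Against wt, none of the 5 tested members passed as higher in either pool in either culture, which does not cover the other cadherins listed below. CDH6 and CDH13 in KOd 2D were above every wt 2D library without passing when all groups were fitted together. In 2D 3 were lower in labelled KOs (53.2% of all genes passed, 27.7% higher and 25.5% lower) and 2 in KOd (44.6%, 22.5% lower). In 3D all 5 were lower in labelled KOs (56.3%, 27.8% higher and 28.5% lower) and 4 in KOd (34%, 17.5% lower), with medians of -1.81 and -1.25 beside 0.016 and 0.0026 for all genes. The median of -1.81 is the value of CDH11, with 6 reads beside 16 in wt, a call lost without wt 3D replicate C. In labelled KOs the count was 4 with library totals alone, the compared groups alone or DESeq2. The libraries labelled KOs and KOd share their wt controls, so these lists are not independent. Between the pools 2 passed in each culture, all higher in KOd: CDH2 and CDH13 in 2D (59.6% of all genes passed, 28.8% higher and 30.7% lower) and CDH3 and CDH6 in 3D (47.2%, 23.9% higher). The response to 3D differed from wt for 5 in labelled KOs (36.8%) and 2 in KOd (29.1%), CDH6 and CDH13 being among both. In labelled KOs the calls of CDH2 and CDH11 were marginal (0.30 ± 0.12 and 3.18 ± 1.14, adjusted p = 0.048 and 0.042), and without labelled KOs 2D replicate A neither passed (adjusted p = 0.075 and 0.069).

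**Figure D3:**
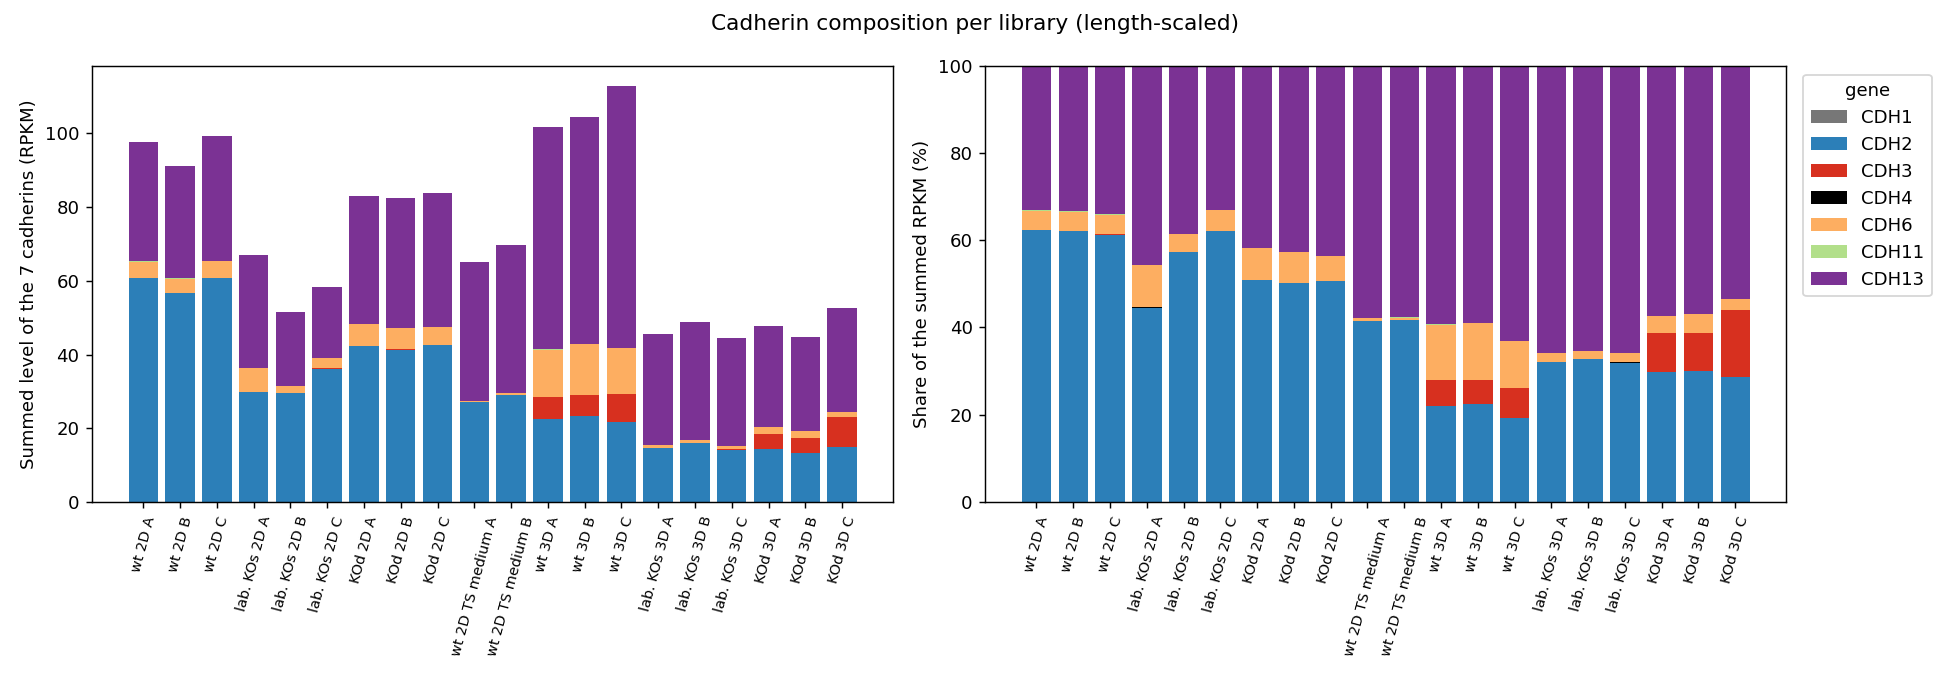
Summed level of the 7 cadherins in RPKM (left, vertical axis) and the share of each gene in that sum in percent (right) for each of the 20 libraries along the horizontal axis, with 1 colour per gene. The CDH2 share drops from wt 2D to wt 3D while the CDH13, CDH6 and CDH3 shares grow, and the summed level is lower in both pools' tumorspheres than in wt tumorspheres.

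To set the genes side by side, CPM was divided by the gene length deposited with the counts (RPKM, CPM per kilobase). On this scale CDH2 and CDH13 together held most of the summed level of the 7 members in every group. Other cadherins are not in this sum, such as CDH18 (21.1 RPKM in wt 2D and 3.99 in wt 3D) and CDH12 (5.72 and 11.8). In wt 2D the mean shares of the sum were 61.9% for CDH2, 33.5% for CDH13, 4.41% for CDH6 and 0.0413% for CDH3. In wt 3D they were 21.3%, 60.4%, 12.2% and 6.08%. The leading cadherin thus differed between wt 2D and wt 3D, in all 3 libraries of each. In tumorsphere medium CDH13 also led, with 57.7%, beside 41.5% for CDH2 and 0.595% for CDH6.

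In the pools CDH2 led in 2D, with 54.6% in labelled KOs and 50.5% in KOd, except in labelled KOs 2D replicate A, where CDH13 had 45.7% and CDH2 44.5%. In 3D CDH13 led in all 6 libraries, with a mean of 65.6% in labelled KOs and 56.0% in KOd. CDH2 came next in 3D, with 32.2% in labelled KOs and 29.5% in KOd. The members after CDH2 differed: CDH6 held 2.02% and CDH3 0.115% in labelled KOs 3D, and CDH6 3.60% and CDH3 10.9% in KOd 3D. For wt the summed level was 96.0 ± 4.24 RPKM in 2D and 106 ± 5.75 in 3D (SD over 3 libraries), but 58.9 ± 7.73 and 46.3 ± 2.14 in labelled KOs and 83.1 ± 0.75 and 48.4 ± 3.96 in KOd. In 3D the highest library of either pool, at 52.6, was below the lowest of wt, at 102. In tumorsphere medium the sum was 67.5 ± 3.28 (n = 2).

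The counts for the gene lists that follow are to be read against all genes, of which 33.3% rose and 30.4% fell in wt tumorspheres, 32.9% and 32.1% in labelled KOs and 35.2% and 31.2% in KOd. Other cadherins were measured from a list of 14 genes, of which 9 could be tested. In wt tumorspheres 4 rose and 3 fell, with a median change of 0.28 when genes at 0 in a group were set at their bound and those at or under 3 reads in both groups left out (0.67 from the fitted values alone), beside 0.04 for all genes. CDH15 (M-cadherin, of muscle) rose, with a change of 5.61 ± 0.49 (adjusted p = 3e-08) from 0.0752 to 3.86 CPM, and CDH12 rose by 1.04 ± 0.13 (adjusted p = 1.6e-06) from 26.9 to 55.6. CDH18 fell by -2.40 ± 0.15 (adjusted p = 5e-10) from 125 to 23.7 CPM, and CDH24 by -0.94 ± 0.16 (adjusted p = 7.4e-05). In labelled KOs 1 rose and 2 fell, and in KOd 4 rose and 4 fell. CDH18, a type II member, fell in both pools' tumorspheres as well (-2.66 ± 0.16 and -2.24 ± 0.15) and with tumorsphere medium (-3.18 ± 0.19), and CDH15 rose in both (2.81 ± 0.41 and 4.36 ± 0.40). CDH22, chosen after its values were seen, averaged 2.09 CPM in wt 3D and 3.77 in KOd 3D but 0.0324 in labelled KOs 3D, and had 0 reads in wt 2D.

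Catenins link the cadherin tail to actin. Of 15 catenins and tail partners 13 were tested, and in wt tumorspheres 5 rose and 7 fell (median -0.21 beside 0.04), where 33.3% of all genes rose and 30.4% fell. JUP, plakoglobin, which serves both adherens junctions and desmosomes, rose from 70.2 to 243 CPM (1.79 ± 0.19, adjusted p = 2.8e-07). CTNNAL1, an alpha-catenin relative, fell by -1.85 ± 0.11, PTPRF, a receptor phosphatase, by -1.79 ± 0.13, and PKP4, an armadillo protein, by -0.92 ± 0.079 (adjusted p = 1.6e-10, 3e-09 and 2.3e-08). The core catenins moved little between wt 2D and wt 3D: CTNNB1, beta-catenin, was 0.10 from 2D (adjusted p = 0.22), CTNNA1, alpha-catenin, fell by -0.21 and CTNND1, p120, rose by 0.20. In other comparisons CTNND1 moved more. It was -0.77 from wt 2D in tumorsphere medium, and -0.73 in 2D and -0.77 in 3D in labelled KOs against wt. In KOd 3D against 2D it rose by 0.60 and CTNNB1 by 0.37, while in labelled KOs CTNND1 did not pass (0.16, adjusted p = 0.086). In labelled KOs 4 rose and 4 fell, with JUP at 0.44 ± 0.18 (adjusted p = 0.042), a response that differed from wt by -1.35 ± 0.26 (adjusted p = 0.00067). JUP was already higher in labelled KOs than in wt in 2D (141 against 70.2 CPM, adjusted p = 0.0002). In 3D its difference from wt did not pass (192 against 243 CPM, -0.34 ± 0.18, adjusted p = 0.12). In KOd 6 rose and 5 fell, with JUP at 1.82 ± 0.19 (adjusted p = 1.8e-07).

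Desmosomal genes, which build the junctions tied to keratin filaments, gave 6 tested of 12, and in wt tumorspheres 1 rose and 3 fell (median -0.67). DSG2, desmoglein, fell by -0.94 ± 0.070 and DSP, desmoplakin, by -1.41 ± 0.20, while the junction gene PERP rose by 1.19 ± 0.094; PKP2 was at most 2.00 CPM. In labelled KOs 2 rose and 4 fell, and in KOd 2 rose and 2 fell. DSP rose in KOd tumorspheres (1.54 ± 0.22), unlike wt, from 2.2 CPM to 6.43, beside 6.55 in wt 3D. Against wt it was already lower in 2D, by -4.42 ± 0.24 in labelled KOs and -2.98 ± 0.22 in KOd (adjusted p = 2.3e-10 and 1.3e-08). In 3D DSP differed from wt by -4.10 ± 0.26 in labelled KOs (adjusted p = 6.8e-10), and in KOd the difference did not pass (-0.03 ± 0.21, adjusted p = 0.93). Of 17 nectin and tight junction genes 16 were tested, and in wt 4 rose and 4 fell (median 0.02), with NECTIN4 at 6.56 ± 0.50, CLDN4 at 4.88 ± 0.43 and NECTIN3 at -1.42 ± 0.13. In labelled KOs 6 rose and 4 fell, and in KOd 7 rose and 5 fell.

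Transcription factors listed here as repressors of CDH1 were among the genes expressed where CDH1 was not detectable. Of 13 such genes 11 were tested, and in wt tumorspheres 7 rose and 2 fell (median 0.39 beside 0.04). SNAI1 rose from 7.44 to 14.4 CPM (0.95 ± 0.21), TWIST2 from 24.3 to 47.6 (0.97 ± 0.11), KLF8 from 2.81 to 12.1 (2.11 ± 0.31) and PRRX1 from 0.610 to 14.5 (4.56 ± 0.41), with adjusted p of 0.00081, 8.4e-07, 1.4e-05 and 4e-08. In labelled KOs 5 rose and 5 fell, and in KOd 2 rose and 5 fell. Against wt tumorspheres 8 were lower and 1 was higher in labelled KOs (median -0.77 beside 0.02 for all genes), and 7 were lower and 0 higher in KOd (median -0.73). Of all genes 28.5% were lower and 27.8% higher in the first comparison, and 17.5% and 16.5% in the second. KLF8 was -6.69 ± 0.43 and -6.91 ± 0.46 from wt in 3D and PRRX1 -3.41 ± 0.36 and -2.48 ± 0.35, in labelled KOs and KOd. KLF8 was already lower than wt in 2D, by -4.95 ± 0.46 and -5.05 ± 0.50 (adjusted p = 1.4e-07 and 3.2e-07). Its response to 3D did not pass as different from that of wt (adjusted p = 0.093 and 0.14). PRRX1 did not pass against wt in 2D (adjusted p = 0.73 and 0.57). In 3D SNAI1 was higher in labelled KOs than in wt (0.91 ± 0.20, adjusted p = 0.001). CDH1 had at most 5 reads in any library of these tumorspheres.

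Regulators of epithelial identity gave 9 tested of 14, and in wt tumorspheres 6 rose and 1 fell (median 1.26). That median was the value of ESRP1, which averaged 0.139 CPM in wt 2D and 0.336 in wt 3D. ELF3, also among those that rose, averaged 0.141 and 0.440 CPM. ESRP1 and ELF3 were named after their values were seen. TP63, the basal epithelial factor, went from 7.32 to 261 CPM in wt (5.16 ± 0.27, adjusted p = 4.9e-11), from 12.4 to 58.8 in labelled KOs (2.25 ± 0.24) and from 42.3 to 218 in KOd (2.37 ± 0.23). TP63 in 3D was lower in labelled KOs than in wt (-2.15 ± 0.23, adjusted p = 4.2e-07), and the change in KOd did not pass (-0.26 ± 0.22, adjusted p = 0.39). In wt EHF rose by 3.02 ± 0.27 (0.623 to 5.11 CPM), GRHL3 by 2.85 ± 0.48 (0.124 to 0.930) and GATA3 by 0.95 ± 0.16 (3.38 to 6.52). GRHL2, OVOL1 and OVOL2 had 1, 0 and 0 reads in all libraries. In labelled KOs 4 rose and 1 fell, and in KOd 5 rose and 3 fell. Among proteases and turnover factors of cadherins 11 of 12 were tested, and 6 rose and 3 fell in wt (median 0.40), 6 and 3 in labelled KOs and 5 and 3 in KOd. MMP14, a membrane protease, went from 48.7 to 431 CPM in wt (3.14 ± 0.24), and CTSS (4.52 ± 0.19), CTSL (1.5 ± 0.13) and CTSB (1.30 ± 0.14), lysosomal cathepsins, rose as well.

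**Figure D4:**
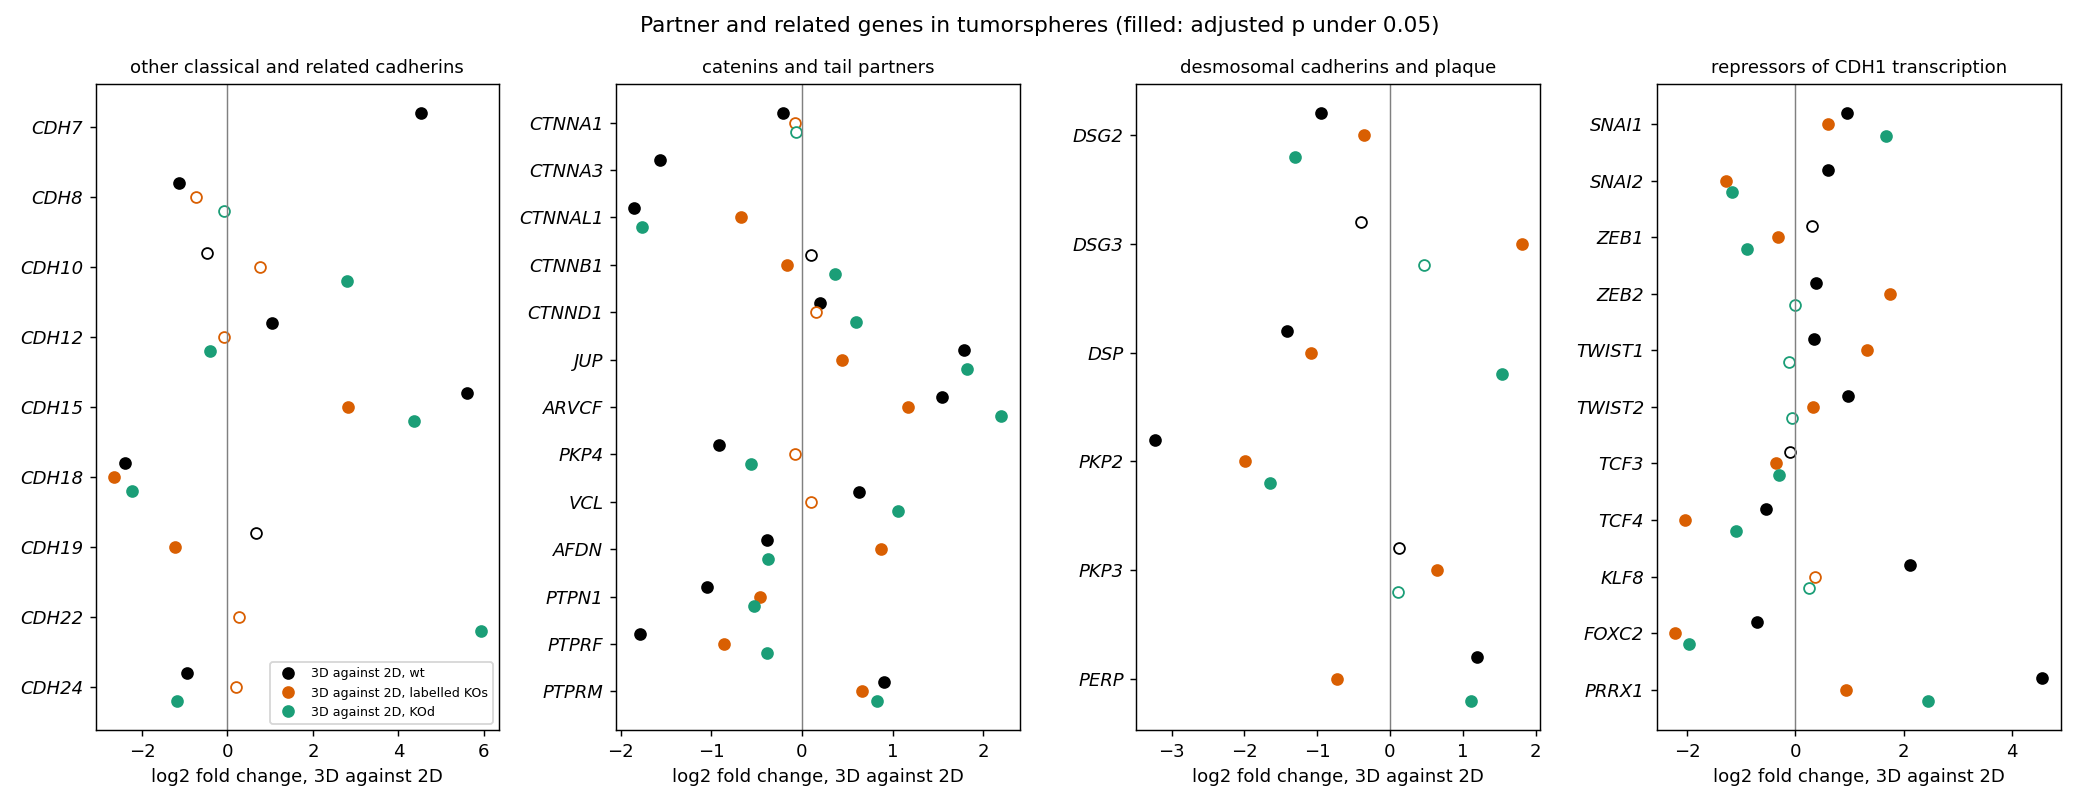
Log2 fold changes of 3D against 2D (horizontal axis) for the tested genes of 4 lists, in wt (black), labelled KOs (orange) and KOd (green); filled points passed an adjusted p of 0.05, and no point is drawn where a group had 0 reads. JUP is higher in all 3, CDH18 is lower in all 3, and most genes listed as repressors of CDH1 are to the right of 0 in wt.

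The genes whose pattern was most like that of a member were sought among 11263 genes by Pearson's r of log2 CPM over the 20 libraries, which share their groups, so r is a description. For CDH2 they were ACTR2 (r = 0.977), MSRB3 (0.977) and HPSE (0.975), for CDH6 PTPN21 (0.942), PTPRK (0.926) and EXTL2 (0.894), and for CDH13 TGFB1I1 (0.889), TULP3 (0.884) and PRKD3 (0.884). CDH1, CDH3, CDH4 and CDH11 had too low a mean level for such a search.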

How the data were processed

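The deposited table holds whole-number read counts per Entrez gene for 20 libraries in 7 groups, which the authors produced using STAR and the hg38 build (named in the submitters' processing notes). The counting tool, its strand setting and the annotation are not given in the sources used here. The gene length used for RPKM was deposited beside the counts. Of 27864 IDs, 27740 matched a RefSeq symbol (GRCh38.p14).

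Genes with few counts were removed by edgeR's filterByExpr (edgeR 4.0.16 under R 4.3.3), which left 16323; counts were scaled by TMM and fitted with a quasi-likelihood model, 1 coefficient per group over all libraries (13 residual degrees of freedom, biological coefficient of variation 0.143). The 13 contrasts were tested over all genes. SE is the log2 fold change over the root of F. A floor of 3 counts is 0.0686 to 0.114 CPM per library. The members and gene lists were chosen with earlier results of these data known. Named genes were the members, NNMT, up to 4 tested genes per list, taken by smallest adjusted p in wt 3D against 2D, and the 3 genes most like each member (members whose log2 CPM, prior count 2, averaged 0 or more, against genes averaging 2 or more); others are marked as chosen after their values were seen, and core catenins, line markers and genes at 0 were added as context.

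Replicate letters do not pair libraries in the labels. Among 15 pairs of groups, only wt 3D and KOd 3D had libraries of like letter whose deviations from the group mean all correlated above 0.1 (r = 0.210, 0.218 and 0.342), where a block was tried. Other settings tried were library totals alone, RLE factors, a strict filter (1 CPM in 3 libraries) or none, ribosomal RNA genes left out, DESeq2 1.42.0, limma-voom (limma 3.58.1), compared groups alone, a replicate block in all groups, a threshold of 0.01 on adjusted p, a log2 change of 1 or more in size and leaving out each library; leaving out 3 libraries that stand apart and the block in wt 3D and KOd 3D alone were added after seeing the data. Protein was not analysed here, and some listed genes are not reported here.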

Additional observations from a re-analysis of the deposited data

Results flagged for a closer look

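In a test of the difference itself, the response to tumorsphere culture passed as different between labelled KOs and wt for 5 cadherins, CDH2 and CDH11 narrowly. The differences in log2 fold change were -6.71 ± 0.86 for CDH3, -3.64 ± 0.40 for CDH6, -0.61 ± 0.18 for CDH13, 3.18 ± 1.14 for CDH11 and 0.30 ± 0.12 for CDH2 (edgeR, adjusted p = 1.7e-05, 3.3e-06, 0.013, 0.042 and 0.048). In KOd the same test passed for CDH6 (-3.31 ± 0.39) and CDH13 (-1.39 ± 0.18), with adjusted p of 9.2e-06 and 2.3e-05. For CDH6 all 3 tumorsphere libraries were above all 3 adherent ones in wt and all 3 were below in each pool, and for CDH13 the same opposite order held between wt and KOd. In labelled KOs the calls of CDH2 and CDH11 did not pass without 2D replicate A (adjusted p = 0.075 and 0.069), and those of CDH2, CDH11 and CDH13 did not with the compared groups alone (0.062, 0.054 and 0.064). The value for CDH11 rests on 3 reads in labelled KOs 2D. All of these share the wt libraries, and for labelled KOs the deeper sequencing and lower ribosomal share of those libraries cannot be told apart from the pool.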

How the results depend on the processing

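Of 805 called log2 fold changes under alternatives, 740 kept their side of the threshold, 65 did not and none changed sign. The number of cadherins passing moved most for the difference between labelled KOs and wt in the response to 3D (main 5). It was 3 without a filter, 3 with a replicate block in all groups and 2 with the compared groups alone. At adjusted p under 0.01 it was 2, at a log2 change of 1 or more in size 3, and without 1 library 3 to 4. Here CDH2 and CDH11 were lost most often, so their calls are weak. In KOd against wt in 3D, the pair whose letters correlated, the block over these 6 libraries left 3 of 4 calls: CDH2, CDH6 and CDH13 passed, and CDH11 had too few reads to be tested in them. In all groups the block also ended the call of CDH11 in labelled KOs against wt in 3D (-1.83, adjusted p = 0.054) and gave one to CDH6 in KOd against labelled KOs in 2D (0.61, adjusted p = 0.047). At a log2 change of 1 or more in size, 1 passed for labelled KOs against wt in 2D (main 3), 1 for KOd against wt in 2D (main 2), 0 and 1 for KOd against labelled KOs in 2D and 3D (main 2 each), and 2 for 3D against tumorsphere medium (main 4). For KOd against wt in 2D a strict filter left 1 and leaving out the 3 libraries that stand apart gave 4. For tumorsphere medium against 2D (main 2), leaving out those libraries and the compared groups alone gave 4 each. Without those 3 libraries the calls over all genes rose too, from 7280 to 9659 and from 5224 to 7968 in these comparisons. KOd against labelled KOs in 3D had 1 at adjusted p under 0.01 and 1 to 2 without 1 library. Signs turned only for CDH3 and CDH6 values that had not passed, and the cause was not tested. Without 1 library CDH3 ranged from -0.56 to 0.16 in labelled KOs and from -0.77 to 0.20 in KOd against wt in 2D. In KOd against labelled KOs in 2D it ranged from -0.58 to 0.39 (0.11 with library totals alone, 0.03 without the libraries that stand apart). For CDH3 the difference between KOd and wt in the response to 3D ranged from -0.47 to 0.51 without 1 library. It was 0.02 with library totals alone and 0.10 with limma-voom. CDH6 ranged from -0.80 to 0.14 without 1 library in labelled KOs against wt in 2D, where it passed without replicate A. Depth limits CDH1, CDH4, CDH11 and CDH3 in 2D, which rest on few reads.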
